A study of Homo sapiens with 6 samples.

Results

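The COMPASS histone methyltransferases were followed through a cell-free cleavage assay with the ribonuclease IRE1. The set held 10 genes chosen by name among 57905 gene identifiers, namely the catalytic subunits KMT2A, KMT2B, KMT2C, KMT2D, SETD1A and SETD1B, the demethylase subunit KDM6A, and the shared core subunits WDR5, ASH2L and RBBP5. Of these, 9 passed the filter on low counts and were tested among 14398 genes, while KMT2B was listed at 0 in all 6 libraries. The RNA came from NCI-H929, an established multiple myeloma cell line kept in culture without a drug or genetic change in these labels. In each reaction, 5 µg of total RNA was held at 37 °C for 1 h in a buffer with ATP, either with 2 µg of recombinant human ERN1/IRE1a (residues 467 to 977) or without the enzyme, and was then heated to 95 °C for 5 min. By the labels the 3 IRE1-treated and 3 control reactions differed in the added enzyme, and both groups went through the heating, clean-up and a poly(A)-selecting stranded library kit. The assay uses naked RNA and a fragment of IRE1, so it has no cell, membrane or repair of cut ends, and no label says whether the replicates came from separate cultures, so p-values measure the spread between these reactions.

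COMPASS complexes add methyl groups to lysine 4 of histone H3, a mark found at active promoters and enhancers. Each complex is built around 1 very large catalytic subunit with a SET domain, and all share a small core that includes WDR5, ASH2L and RBBP5, which holds the SET domain in its active form. SETD1A and SETD1B place most trimethylation at promoters, KMT2A and KMT2B act at selected promoters such as those of the HOX genes, and KMT2C and KMT2D place monomethylation at enhancers in complexes that also carry KDM6A, an eraser of the repressive mark on lysine 27 of histone H3. IRE1 is the endoplasmic reticulum stress sensor whose cytosolic part holds a kinase and a ribonuclease that cuts RNA within hairpin loops. In myeloma, genes of the enhancer-type complexes are known targets of mutation.

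Each library held between 19615715 and 25678499 counts on genes. Normalized counts below are counts divided by library size times the TMM factor (the trimmed-mean scaling of edgeR), set to the scale of the mean library. Over all genes tested by the edgeR quasi-likelihood test, 1781 were lower and 1489 were higher with IRE1 at a Benjamini-Hochberg adjusted p under 0.05, together 22.7% of those tested. IRE1 replicate 1 stood apart, with a chi-square per gene of 6.64 and 10.2 against the other IRE1-treated libraries, compared with 2.13 to 2.90 among controls. BLOC1S1, a known IRE1 substrate, fell by 1.37 on the log2 scale (adjusted p = 1.3e-06), whereas XBP1, the classical substrate that IRE1 cuts for splicing, stood at -0.093 on that scale (adjusted p = 0.143). These are counts over whole genes. BLOC1S1 shares 493 of its 1655 merged exon bases with ENSG00000258311 on its own strand, and 119 with ITGA7 on the opposite strand. The BLOC1S1 counts are uncertain for that reason. The study describes poly(A) selection as losing the part of a transcript upstream of a cut. For XBP1 it reported clearly fewer reads on upstream exons and similar reads on downstream exons. A gene count sums both parts, here and for the members below. All 9 plasma cell markers examined were present, from CD38 at 408 to 623 counts to JCHAIN at 80331 to 102846 counts, and the B cell marker MS4A1 and the T cell marker CD3D had at most 1 count, although CD3E had 890 to 1063 counts and KRT18, an epithelial keratin, 1147 to 1350 counts. In a level from bulk RNA, fewer cells with a transcript and less transcript per cell cannot be told apart, while the comparison with IRE1 starts from RNA already extracted.

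The catalytic subunits were lower with IRE1 and the core subunits mostly were not. Transcripts of all 5 catalytic subunits with counts fell, to between 57.9 and 87.1% of control, and KDM6A fell as well. Of the core subunits, RBBP5 fell, and WDR5 and ASH2L did not pass the test. In total 7 of the 9 tested members were lower and 0 were higher, where 12.4% of all tested genes were called lower and 10.3% higher. The share of lower calls moved with transcript length in these libraries, and among coding genes of lengths like those of the members it ran from 2.60% for ASH2L to 43.8% for KMT2A. KMT2C is among the genes that the study selected from these same libraries, so its decrease is not independent evidence of a direction.

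**Figure D1:**
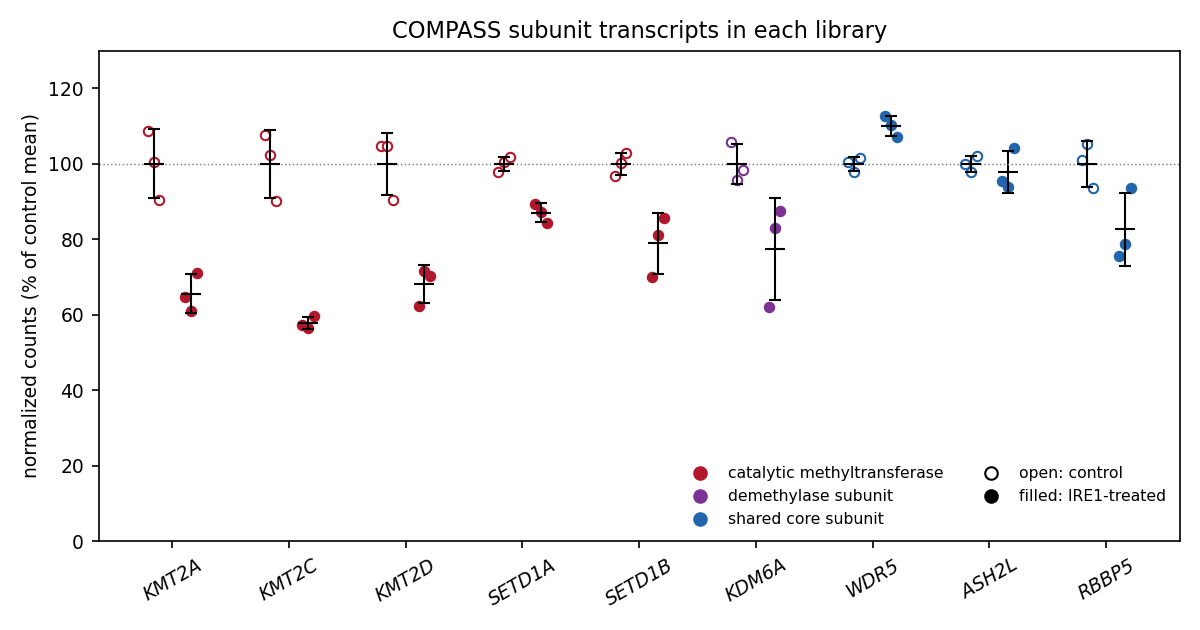
Normalized counts of the 9 tested members in each library, as a percent of the control mean (vertical axis), with open circles for the 3 control and filled circles for the 3 IRE1-treated libraries and black bars for the mean ± SD. KMT2C with IRE1 lies lowest, at a mean of 57.9% of control, and the WDR5 libraries with IRE1 all lie above those of the controls.

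KMT2C (ENSG00000055609, chr7:151832007-152133729, minus strand, GRCh37), a catalytic subunit of the enhancer-type complexes, changed most of the members. Its normalized counts were 1622, 1539 and 1356 in the controls and 863, 852 and 899 with IRE1. Every IRE1-treated library was below every control, and the treated libraries lay closer together than the controls. The mean went from 1506 ± 136 to 871 ± 24.9 (SD, n = 3 each), a log2 fold change of -0.79 (SE 0.0670, adjusted p = 7.46e-06). Among the 10302 genes with at least 100 mean normalized counts, KMT2C had rank 26 from the lowest fold change. The annotation lists 4 KMT2C pseudogenes, and how read pairs divide between near-identical copies is uncertain.

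KMT2A (ENSG00000118058, chr11:118307171-118397547, plus strand) encodes the MLL protein, and rearrangements join this gene to other genes in some acute leukaemias. Normalized counts were 2885, 2666 and 2399.6 in the controls against 1716, 1614 and 1883 with IRE1. The groups did not overlap, and replicate 3 was nearest to the other group on both sides. The mean went from 2650.0 ± 243 to 1738 ± 136 (SD, n = 3 each), a log2 fold change of -0.61 (SE 0.0690, adjusted p = 6.19e-05), at rank 95.

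KMT2D (ENSG00000167548, chr12:49412758-49454577, minus strand) is the closest paralogue of KMT2C. Its 6 libraries gave 1865, 1865 and 1609 normalized counts without IRE1 and 1109, 1277 and 1253 with it. All IRE1-treated libraries were lower than all controls, with IRE1 replicate 1 the lowest. The mean went from 1779.7 ± 148 to 1213 ± 90.9 (SD, n = 3 each), a log2 fold change of -0.55 (SE 0.0685, adjusted p = 1.12e-04), at rank 161.

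The SETD1 subunits moved less. SETD1B (ENSG00000139718, chr12:122241915-122270562, plus strand) had 1258, 1301 and 1334 normalized counts in the controls and 909, 1052 and 1112 with IRE1. No library of one group reached the other, and the treated libraries were the more spread out. From 1298 ± 38.4 the mean went to 1024 ± 104 (SD, n = 3 each), a log2 fold change of -0.34 (SE 0.0682, adjusted p = 0.00271). SETD1A (ENSG00000099381, chr16:30968615-30995985, plus strand) had 1353, 1389 and 1406 normalized counts in the controls and 1237, 1208 and 1166 with IRE1. The groups were separate here too, with little spread within either. From 1383 ± 27.1 the mean went to 1204 ± 35.4 (SD, n = 3 each), a log2 fold change of -0.20 (SE 0.0529, adjusted p = 0.0133). The SETD1A call was lost without control replicate 2 (adjusted p = 0.0691) or without control replicate 3 (adjusted p = 0.0574).

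KMT2B (ENSG00000272333, chr19:36208875-36229781, plus strand), the paralogue of KMT2A, had 0 counts in each of the 6 libraries, which allows up to 3 counts per library for counting error only. In the annotation used here it shares 80 of its 10806 merged exon bases with IGFLR1 on the opposite strand. Whether this overlap has a part in the 0 was not tested. The gene models behind the counts and the overlap setting were not at hand, so the 0 is not read as absence of the transcript, and no fold change was computed.

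KDM6A (ENSG00000147050, chrX:44732434-44972024, plus strand), also known as UTX, had 584, 529 and 544 normalized counts in the controls and 343, 458 and 484 with IRE1. The groups did not overlap, and IRE1 replicate 1 lay well under the other treated libraries. From 552 ± 28.9 the mean went to 428 ± 74.8 (SD, n = 3 each), a log2 fold change of -0.36 (SE 0.102, adjusted p = 0.0190). Without IRE1 replicate 1 the log2 fold change was -0.23 (adjusted p = 0.0332). Without control replicate 1 the adjusted p was 0.103, and without control replicate 3 it was 0.0522.

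The shared core subunits did not move as a group. WDR5 (ENSG00000196363, chr9:137000487-137025090, plus strand), the WD-repeat protein that binds the catalytic subunits, had 1291, 1257 and 1305 normalized counts in the controls and 1446, 1417 and 1376 with IRE1. All treated libraries were above all controls, as was the case for 19.1% of all tested genes. From 1284 ± 24.9 the mean went to 1413 ± 34.9 (SD, n = 3 each), a log2 fold change of 0.14 (SE 0.0520) that did not pass the test (adjusted p = 0.0683). The adjusted p was 0.0370 without IRE1 replicate 3, and with scaling by library size alone the log2 fold change was 0.062.

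ASH2L (ENSG00000129691, chr8:37963011-38001594, plus strand) pairs with RBBP5 to stimulate the catalytic subunit. Its normalized counts were 1599, 1568 and 1635 in the controls and 1526, 1502 and 1669 with IRE1. The groups overlapped, since IRE1 replicate 3 was the highest of all 6 libraries. The means were 1601 ± 33.2 and 1565 ± 90.1 (SD, n = 3 each), with a log2 fold change of -0.031 (SE 0.0547, adjusted p = 0.738). The annotation lists 3 ASH2L pseudogenes.

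RBBP5 (ENSG00000117222, chr1:205055270-205091143, minus strand) was the core subunit that fell. Its normalized counts were 499.8, 521 and 462.2 in the controls and 373, 390.0 and 462.3 with IRE1. The groups overlapped, with IRE1 replicate 3 level with control replicate 3. From 494 ± 29.7 the mean went to 408 ± 47.4 (SD, n = 3 each), a log2 fold change of -0.27 (SE 0.0891, adjusted p = 0.0384). Its call rested on several libraries, since the adjusted p was 0.126 without control replicate 1, 0.165 without control replicate 2, 0.0807 without IRE1 replicate 1 and 0.146 without IRE1 replicate 2.

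The median log2 fold change was -0.55 over the 5 catalytic subunits with counts and -0.031 over the 3 core subunits, beside 0.0045 over all tested genes. Groups did not overlap, with IRE1 lower, for 6 members, as for 20.0% of all tested genes. Without IRE1 replicate 1, the library that stood apart, the catalytic median was -0.49 and 6 members passed, all lower, beside 11.4% of genes called lower and 9.80% higher. The strand and overlap settings of the counting are not given in the sources used here, and reads of genes that share exons cannot then be told apart. Exons on the opposite strand overlap KMT2A (TTC36-AS1, 317 bases), KMT2C (FABP5P3, 238 bases), KMT2D (DDN-AS1, 267 bases), WDR5 (WDR5-DT, 408 bases) and ASH2L (STAR, 338 bases). SETD1A, SETD1B, KDM6A and RBBP5 share no exon bases, in the annotation used here, with another gene among the counted identifiers.

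Catalytic and core transcripts differ in length as well as in role. The longest annotated coding transcript was 16725 bases for KMT2A, 16860 for KMT2C, 20686 for KMT2D, 8557 for SETD1B and 6451 for SETD1A, compared with 3157 for WDR5, 2918 for ASH2L and 4367 for RBBP5, and KDM6A had 6094. Over all tested protein-coding genes the change moved with this length. Genes under 2000 bases had a median log2 fold change of 0.18, with 0.123% called lower and 35.7% higher, whereas genes of 8000 to 12000 bases had a median of -0.27, with 45.8% called lower and 1.33% higher. At 12000 bases or more the median was -0.25 over 281 genes, with 44.8% called lower and 1.78% higher.

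The members were set beside coding genes of like length, where the shorter of the pair was at least 0.8 times the longer, and they lay on both sides. KMT2C, at -0.79, was under the lower quartile of -0.40 of its 158 genes of like length, and KMT2A, at -0.61, was under the same value for its 162. KMT2D, at -0.55, was under the lower quartile of -0.34 of its 53 genes. KDM6A and RBBP5 were also under their lower quartiles, of -0.28 and -0.19. SETD1A and SETD1B lay within the quartiles, which ran from -0.31 to -0.042 for SETD1A and from -0.39 to -0.095 for SETD1B. ASH2L lay within its quartiles of -0.067 to 0.12, and WDR5, at 0.14, was above its upper quartile of 0.10.

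**Figure D2:**
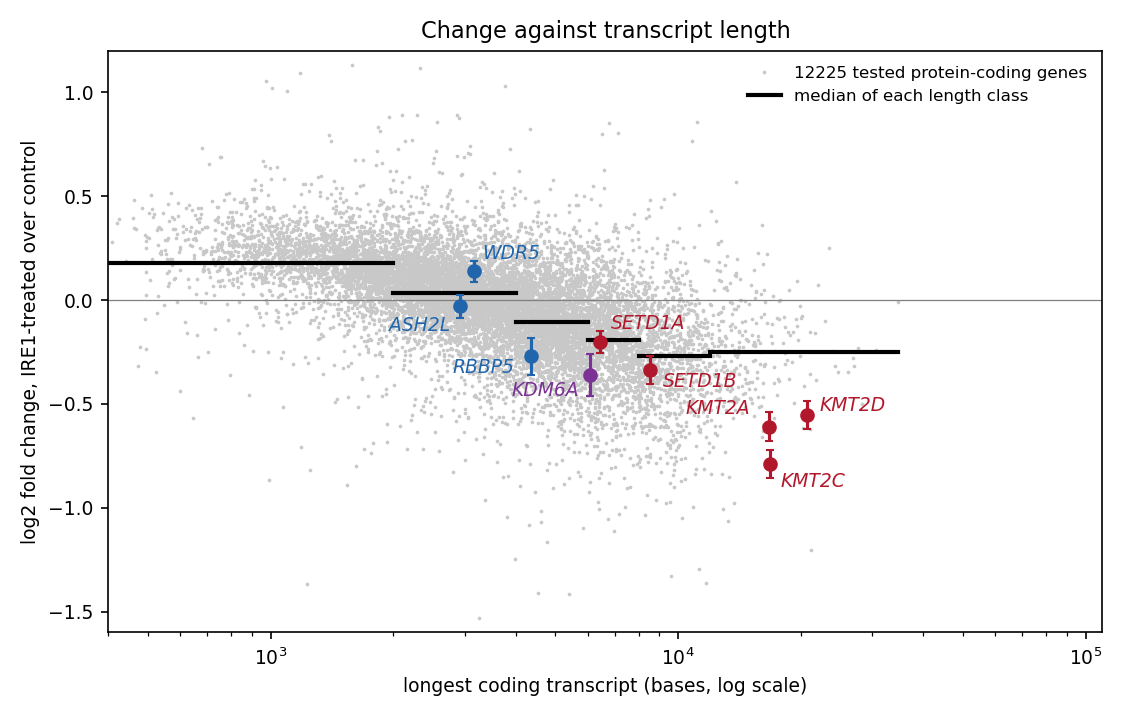
Log2 fold change with IRE1 (vertical axis) against the length of the longest coding transcript in bases (horizontal axis, log scale) for 12225 tested protein-coding genes (grey, 10 outside the axes), with black lines for the median of each length class and coloured points with bars of 1 SE for the members. Medians go from 0.18 in the shortest class to -0.25 in the longest, and KMT2A, KMT2C and KMT2D lie under the line of their class.

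When a trend with transcript length and GC content was removed from each library, 3 members passed, and 649 of all genes were lower and 990 higher (4.51 and 6.88%). KMT2C kept a log2 fold change of -0.48 (edgeR, Benjamini-Hochberg adjusted p = 1.07e-04), KMT2A of -0.31 (adjusted p = 0.00172) and KMT2D of -0.24 (adjusted p = 0.0146). The calls of the others were lost. SETD1B then had -0.13 (adjusted p = 0.166), SETD1A -0.047 (adjusted p = 0.627), KDM6A -0.18 (adjusted p = 0.211) and RBBP5 -0.18 (adjusted p = 0.146). WDR5 had 0.12 (adjusted p = 0.112) and ASH2L -0.061 (adjusted p = 0.497). Scaling by library size alone gave 2594 lower and 684 higher genes (18.0 and 4.75%), and the median over all genes was then -0.071.

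**Figure D3:**
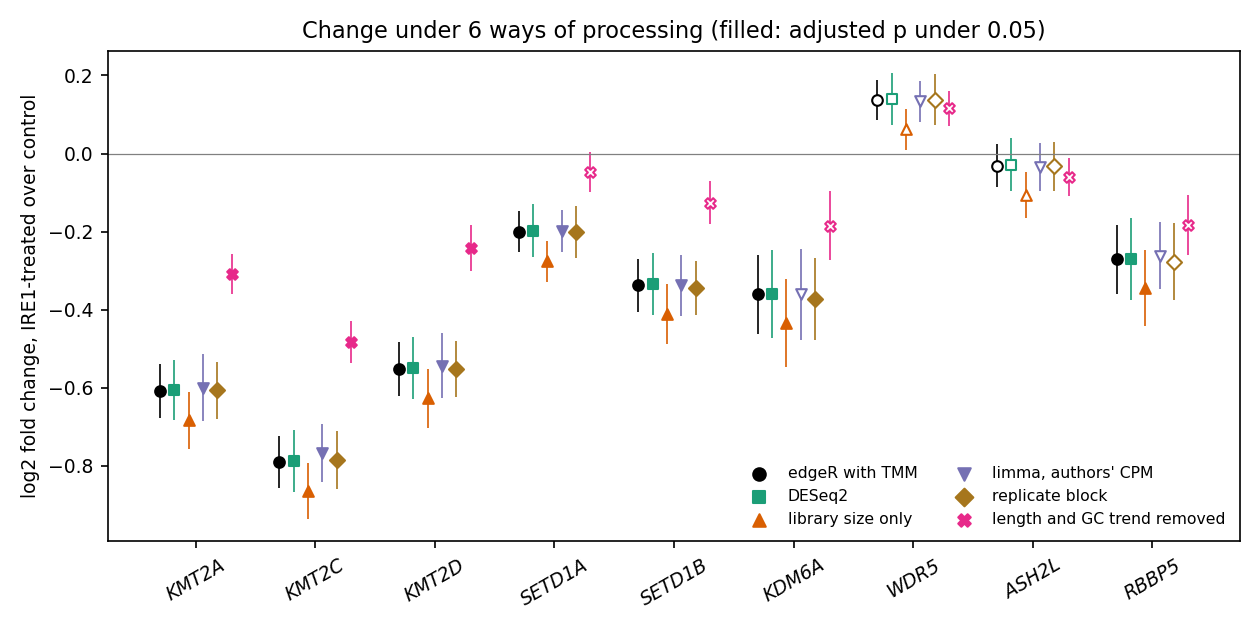
Log2 fold change with IRE1 (vertical axis, bars of 1 SE) of each tested member under 6 ways of processing, filled where the adjusted p was under 0.05. KMT2A, KMT2C and KMT2D are filled under all 6, and SETD1A, SETD1B, KDM6A and RBBP5 are open once the length and GC trend is removed.

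Ratios of raw counts within a library need no scaling between libraries. The log2 ratio of KMT2C to KMT2D was -0.20, -0.28 and -0.25 in the controls and -0.36, -0.58 and -0.48 with IRE1. All treated libraries had the lower ratio, so KMT2C was lower relative to its paralogue in 3 of 3. The means were -0.24 ± 0.0382 and -0.47 ± 0.111 (SD, n = 3 each), a difference of -0.23 with an exact two-sided permutation p of 0.1, the smallest that 3 against 3 allows, and 0.2 after Benjamini-Hochberg adjustment over 2 pairs.

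For SETD1A over SETD1B the log2 ratio was 0.11, 0.094 and 0.076 in the controls and 0.44, 0.20 and 0.069 with IRE1. IRE1 replicate 1 was the highest and IRE1 replicate 3 the lowest of the 6, and the groups overlapped. The difference of means was 0.15 (0.092 ± 0.0150 against 0.24 ± 0.190, SD, n = 3 each; exact permutation p = 0.4, adjusted 0.4), and leaving out 1 library moved it from 0.043 (without IRE1 replicate 1) to 0.23. The summed counts of the 5 catalytic subunits over those of the 3 core subunits had log2 ratios of 1.41, 1.39 and 1.252 in the controls and 0.80, 0.86 and 0.85 with IRE1. All treated libraries were under all controls, and the difference of their means came to a ratio of 0.701. It is given without a test because the subunits were summed over a chosen set. The summed groups also differ in transcript length, with which the change moved over all coding genes, and this ratio does not correct for that. With the length and GC trend removed, the median log2 fold change was -0.24 for the catalytic and -0.061 for the core subunits.

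**Figure D4:**
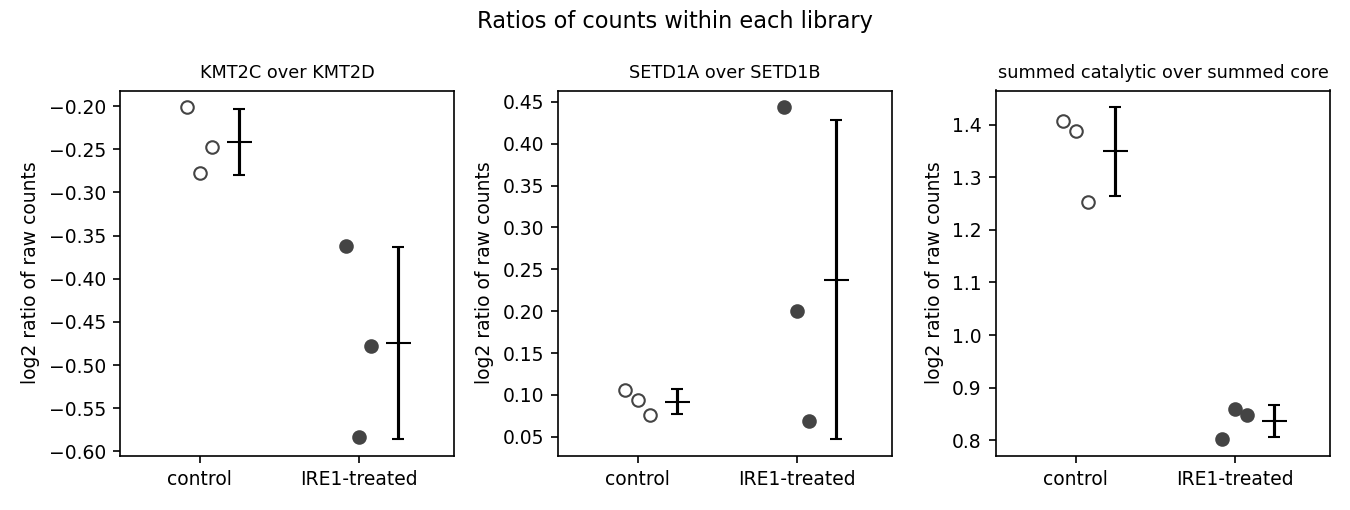
Log2 ratios of raw counts within each library (vertical axes, each with its own range) for KMT2C over KMT2D, SETD1A over SETD1B, and the summed catalytic over the summed core subunits, with points for the 3 control and 3 IRE1-treated libraries and bars for mean ± SD. Treated and control libraries separate in the first and last panels, at means of -0.24 and -0.47 and of 1.35 and 0.84, and overlap in the middle one. The groups summed in the last panel differ in transcript length, which the ratio does not correct for.

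IRE1 is known to cut RNA at CUGCAG elements in hairpin loops, and this motif was searched in the longest transcript of each member. The motif reads the same on both strands, and only the transcript itself was searched. A site counted as a loop site when its first G lay unpaired in a hairpin with a loop of 5 to 11 bases. The stem had to have 3 pairs or more, in an RNAfold structure with 15 bases on either side. Only that G had to be unpaired, and a loop of 5 bases cannot hold all 6 bases of the motif. All 6 catalytic transcripts held such a site and the 4 of KDM6A, WDR5, ASH2L and RBBP5 held none, where 36.9% of 12225 tested coding transcripts held at least 1. Among transcripts of like length the share was 75.3% for KMT2A, 76.6% for KMT2C, 81.1% for KMT2D, 54.6% for KMT2B, 54.9% for SETD1B and 48.6% for SETD1A, and 47.5% for KDM6A, 40.3% for RBBP5, 34.7% for WDR5 and 33.4% for ASH2L. A match describes letters and a predicted fold, and no cut ends were measured.

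The loop sites of the 3 subunits with the largest decreases are shown from the GRCh37 reference transcripts, 5′ to 3′, with the motif in capitals, because these are the members called with and without the length trend. The KMT2A site was in the 3′ UTR, in exon 37 of 37 at chr11:118394849-118394878 (plus strand), in a loop of 9 bases.
KMT2A, 3′ UTR: aaguccucauauCUGCAGagaacccauuga
The coding site of KMT2C spanned the junction of exons 16 and 17 of 59, at chr7:151927382-151932906 (minus strand, intron removed), in a loop of 5 bases on a stem of 10 pairs, and its 3′ UTR site was in exon 59 at chr7:151833073-151833102, in a loop of 7 bases.
KMT2C, coding: cuggggugucuaCUGCAGauauuucaucaa
KMT2C, 3′ UTR: ugcuaccaggcuCUGCAGcagcucgggggc
The KMT2D sites were all coding, at the junction of exons 2 and 3 of 56 (chr12:49448783-49449061, minus strand, intron removed), in exon 23 (chr12:49437746-49437775) and in exon 35 (chr12:49431445-49431474), in loops of 9, 5 and 9 bases.
KMT2D, exons 2 and 3: cagcugauggacCUGCAGcuucugaggacc
KMT2D, exon 23: cugcugaccugcCUGCAGagggcgccgugg
KMT2D, exon 35: ugccugguggacCUGCAGcaucuggggaug
Across these transcripts the motif without a fold requirement occurred 14 times in KMT2A, 11 times in KMT2C and 22 times in KMT2D, and 86.7% of all tested coding transcripts held at least 1.

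The study's primers for KMT2C are shown because their place in the transcript sets which part of it a PCR reads. Both matched exon 43 of 59, at chr7:151859891-151859910 for the forward and chr7:151859693-151859713 for the reverse primer, or transcript positions 10969 to 11186 of 16860.
KMT2C forward: atcaacccaatcgctcattc
KMT2C reverse: cggcttgttgaggaagctcac
The amplified stretch lay between the coding loop site, whose G was at transcript position 2996, and the 3′ UTR loop site, and it spanned neither. The study describes such primers as lying in the 5′ region of each candidate, on cDNA made with oligo(dT). In the longest transcript used here the KMT2C stretch began at 65.1% of the length, downstream of the coding loop site. The study reported a significant decrease for all its candidates. Whether that decrease for KMT2C goes with either loop site was not tested. It also folded these candidates with Mfold and looked for stem-loops near the cleavage region, which it took from exon-usage plots. KMT2C is not among those it names with a consensus stem-loop there. The loop sites shown here came from short RNAfold windows along the whole transcript, so these searches are not alike.

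Levels were compared between genes only per length, in TMM-scaled FPKM computed here from the counts. Per kilobase of merged exons the control levels were 15.9 ± 0.307 for WDR5, 12.7 ± 0.264 for ASH2L, 8.88 ± 0.174 for SETD1A, 6.80 ± 0.202 for SETD1B, 5.04 ± 0.303 for RBBP5, 3.78 ± 0.346 for KMT2A, 3.14 ± 0.261 for KMT2D, 1.27 ± 0.115 for KMT2C and 0.893 ± 0.0467 for KDM6A (SD, n = 3 each). No neighbours overlapped in this order. Merged exons reached 53322 bases for KMT2C and 27742 for KDM6A, far over their transcripts. Per kilobase of the longest transcript ASH2L led, at 24.6, and WDR5 followed at 18.3. KMT2A (7.11 ± 0.652) and SETD1B (6.80 ± 0.202) then did not differ beyond their spread, nor did KDM6A (4.07 ± 0.213), KMT2C (4.01 ± 0.363) and KMT2D (3.86 ± 0.321). On both scales WDR5 and ASH2L were above every catalytic subunit.

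**Figure D5:**
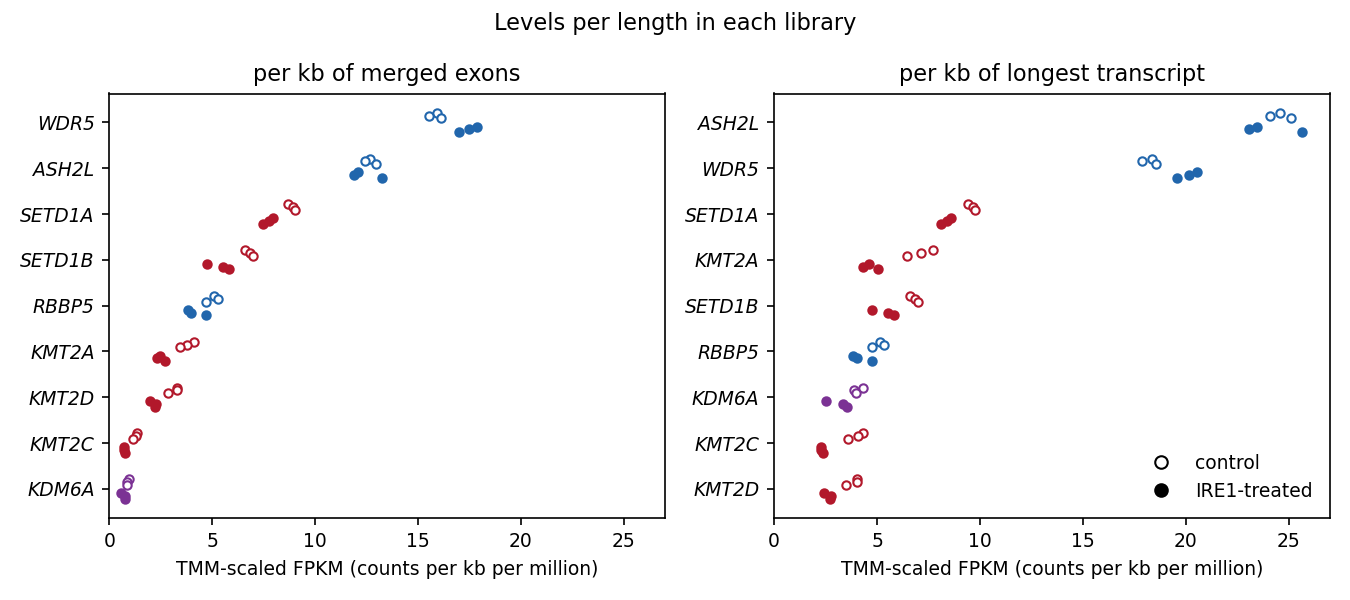
TMM-scaled FPKM (horizontal axes) of each member with counts, per kilobase of merged exons (left) and of the longest transcript (right), with open circles for control and filled circles for IRE1-treated libraries. WDR5 and ASH2L lead on both scales, at control means of 15.9 and 12.7 on the left and 18.3 and 24.6 on the right.

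The genes whose log2 normalized counts followed KMT2C most closely over the 6 libraries, among 10293 genes with at least 100 mean normalized counts, were BCOR (r = 0.998), HERC1 (0.998), ADAM19 (0.998), RAPH1 (0.997) and NSD1 (0.997). Their longest transcripts ran from 6481 bases for ADAM19 to 15197 for HERC1. WDR5 was followed most closely by TMEM208 (0.999), HRAS (0.998), RPL19 (0.997), SUPT4H1 (0.997) and TSR3 (0.997), whose transcripts ran from 887 to 1643 bases. These Pearson correlations describe 6 libraries that share the difference between groups.

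Further subunits and erasers of the same mark were taken from lists. Of the 11 tested COMPASS-associated subunits, 5 fell and 6 did not pass the test, with a median log2 fold change of -0.14, beside 12.4% lower among all tested genes. With the length and GC trend removed, 2 were lower, beside 4.51% of all tested genes, and the median was -0.0062. BOD1L1, a SETD1-associated protein, fell by 0.49 on the log2 scale (edgeR, Benjamini-Hochberg adjusted p = 3.22e-04), and HCFC1, the host cell factor, fell by 0.39 (adjusted p = 1.68e-04). NCOA6, a coactivator in the KMT2C and KMT2D complexes, fell by 0.26 (adjusted p = 0.00229), WDR82, a SETD1 partner, fell by 0.19 (adjusted p = 0.0216), and PAXIP1 fell by 0.27 (adjusted p = 0.0498). The NCOA6 call was lost with the trend removed, at -0.020 (adjusted p = 0.860). So were those of WDR82, at -0.13 (adjusted p = 0.101), and PAXIP1, at -0.23 (adjusted p = 0.108). The WDR82 and PAXIP1 calls were lost when any control library or IRE1 replicate 2 was left out, and that of PAXIP1 also without IRE1 replicate 1, at -0.16 (adjusted p = 0.158). The highest were DPY30, another core subunit, at 0.16 (adjusted p = 0.153) and BOD1 at 0.14 (adjusted p = 0.256). DPY30 shares 1385 exon bases on its own strand with MEMO1, and its counts are uncertain for that reason.

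Of the 5 demethylases of histone H3 lysine 4, 3 fell and 2 did not pass, with a median log2 fold change of -0.16, against the same 12.4%. KDM1B fell by 0.59 on the log2 scale (adjusted p = 0.00166), KDM5B by 0.18 (adjusted p = 0.0223) and KDM5C by 0.16 (adjusted p = 0.0213). The KDM5B and KDM5C calls were lost when any control library or IRE1 replicate 2 was left out, and with the trend removed KDM1B was the 1 gene called, KDM5B turned to 0.073 (adjusted p = 0.342) and the median to 0.073. KDM1A, the demethylase LSD1, had 0.059 (adjusted p = 0.435), and KDM5A had -0.14 (adjusted p = 0.143). Over all 60 tested genes of the 5 lists, 22 were lower and 1 was higher, where 12.4 and 10.3% of all tested genes were. With the trend removed 9 were lower and 2 higher, where 4.51 and 6.88% of all tested genes were. The longest transcripts of the 22 had a median of 6869.5 bases against 3749 for those that did not pass. By length, 1 of 22 genes under 4000 bases, 13 of 27 of 4000 to 8000 bases and 8 of 11 of 8000 bases or more were lower. Among all tested coding genes, 0.123% under 2000 bases, 3.12% of 2000 to 4000, 20.2% of 4000 to 6000, 35.4% of 6000 to 8000, 45.8% of 8000 to 12000 and 44.8% of longer ones were lower.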

How the data were processed

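Per the labels and the study's methods, the authors trimmed reads with cutadapt 1.12, aligned them to hg19 with STAR 2.5.3a and counted pairs per gene with HTSeq 0.6.1p1. The deposited values are raw counts per Ensembl gene for 3 IRE1-treated and 3 control libraries. The 5 summary lines (21.4 to 23.2% of counts) were left out. The authors also deposited a CPM table, normalized by them, which was used only in an alternative. Gene symbols were matched through GENCODE release 44 lifted to GRCh37 (55538 of 57905 identifiers).

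All genes entered 1 edgeR 4.0.16 quasi-likelihood fit (R 4.3.3) with its low-count filter, TMM scaling and Benjamini-Hochberg adjustment, at a threshold of 0.05. Depth was 19615715 to 25678499 counts on genes, and counting error is part of the fit. No 2 libraries agreed within sampling noise. Alternatives were DESeq2 1.42.0, library size only, upper quartile scaling, other low-count filters, limma 3.58.1 on log2 of CPM plus 1, a block for the replicate number, removal of a loess trend on transcript length and GC content (span 0.5), and each library left out. Each library had its own sequencing lane, so lane and library cannot be told apart. Motif folds used RNAfold 2.7.2. The members and lists were chosen with earlier results of these data known. Beside all members, the text names the substrates BLOC1S1 and XBP1, the 2 lowest and 2 highest genes of each list and the 5 genes most like KMT2C and WDR5. NCOA6, PAXIP1, WDR82, KDM5C, KDM6B and PHF2 were named after their values were seen. Scripts were tested on simulated data. Exon counts and protein sequences were not used here.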

Additional observations from a re-analysis of the deposited data

How the results depend on the processing

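Of 135 member fold changes recomputed under other settings, 115 kept their side of the threshold, 19 lost it, 1 gained it and 0 changed sign. KMT2A, KMT2C and KMT2D were past the threshold under every alternative run. The number of genes called was 3270, and it was 2073 with limma on the authors' CPM (1292 lower, 781 higher), 1639 with the length and GC trend removed, and 1630 to 4312 when 1 library was left out (1681 without control replicate 1, 1630 without control replicate 2, 1982 without IRE1 replicate 2, 4312 without IRE1 replicate 3). Members called went from 7 to 3 with the trend removed, and ran from 5 to 8 with a library left out. Listed chromatin genes called went from 23 to 11, and ran from 16 to 27. The catalytic median was -0.24 with the trend removed. With the trend removed, SETD1A had -0.047, SETD1B -0.13, KDM6A -0.18 and RBBP5 -0.18. With limma on CPM, KDM6A had -0.36 (adjusted p = 0.0693) and RBBP5 -0.26 (adjusted p = 0.0731).

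With a library left out, log2 fold changes ran from -0.22 to -0.17 for SETD1A, from -0.45 to -0.23 for KDM6A, from 0.12 to 0.16 for WDR5 and from -0.37 to -0.21 for RBBP5. Per kilobase of longest transcript, control levels were 7.11 for KMT2A, 4.01 for KMT2C, 3.86 for KMT2D, 9.62 for SETD1A, 4.07 for KDM6A, 18.3 for WDR5 and 24.6 for ASH2L. With a loop of exactly 7 bases, 2 members held a CUGCAG site, beside 7.52% of all tested coding transcripts and 6.04 to 26.4% of those of like length. With the motif CNGCAG 8 members did, beside 61.8% of all and 59.9 to 95.6% of those of like length.

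Same-numbered samples did not deviate together (correlations -0.031, -0.00082 and -0.10). With 3 libraries per group this cannot decide whether they were set up as pairs, and no label says so. With the replicate block, 2613 genes were called, RBBP5 had -0.28 (adjusted p = 0.0555), and the calls of PAXIP1, KDM5B, KDM5C and RBBP7 were lost. Of the 21 other histone lysine methyltransferases, 7 were then lower, against 8 without the block. With the block and the trend removed, 1383 genes, 3 members and 10 listed genes were called, the catalytic median was -0.24, and SETD1A had -0.047, SETD1B -0.13, KDM6A -0.19 and RBBP5 -0.19. The KMT2A to KMT2B ratio was not run because KMT2B was at 0. The cause of these differences was not tested. The tested members with fewest counts, RBBP5 and KDM6A, had the largest SEs of the 9, at 0.0891 and 0.102.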

Other observations

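Other chromatin lists, each read beside 12.4% of all tested genes called lower and 10.3% higher, held genes that fell and few that rose. Among 12 genes of histone H3 lysine 27 methylation and demethylation, 3 fell and 1 rose, with a median log2 fold change of 0.0059. SUZ12, a core subunit of the Polycomb complex PRC2, fell by 0.38 on the log2 scale (edgeR, Benjamini-Hochberg adjusted p = 0.00142), JARID2, a PRC2 partner, fell by 0.36 (adjusted p = 0.00103) and KDM6B, the paralogue of KDM6A, fell by 0.22 (adjusted p = 0.00907). RBBP7 rose by 0.15 (adjusted p = 0.0313), a call lost when any control library or IRE1 replicate 2 was left out, with library size only (0.072, adjusted p = 0.320), with no filter on low counts, with limma, and with the length and GC trend removed (0.077, adjusted p = 0.248). PHF1 had 0.16 (adjusted p = 0.108) in the main fit. With the length and GC trend removed KDM6B had -0.057 (adjusted p = 0.552). Of the 12 genes 2 were then lower and 1 higher, beside 4.51 and 6.88% of all tested genes.

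Among 21 other histone lysine methyltransferases, 8 fell and 0 rose, with a median of -0.12 and 13 not past the test. With the trend removed 3 were lower and 1 higher, beside 4.51 and 6.88% of all tested genes. ASH1L fell by 0.58 (adjusted p = 2.04e-04) and KMT2E, which carries the KMT2 name but lacks methyltransferase activity, fell by 0.44 (adjusted p = 1.54e-04), while KMT5A had 0.11 (adjusted p = 0.213) and SMYD3 0.11 (adjusted p = 0.456). Among 11 readers of histone H3 lysine 4 methylation, 3 fell and 8 did not pass, with a median of -0.057. With the trend removed 1 was lower, beside the same 4.51%. SPIN1 fell by 0.42 (adjusted p = 0.00434), BPTF, the largest subunit of the remodeller NURF, fell by 0.34 (adjusted p = 0.00176) and PHF2 fell by 0.29 (adjusted p = 0.0105). The PHF2 call was lost without control replicate 1, control replicate 3 or IRE1 replicate 2, and with the trend removed (adjusted p = 0.0738). The highest readers were ING1 at 0.17 (adjusted p = 0.212) and ING5 at 0.16 (adjusted p = 0.232).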
